A study of Mus musculus with 35 samples.

Results

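The shortest cold exposure of the series, 6 hours, was compared with room temperature in mouse interscapular brown adipose tissue (iBAT). The comparison takes the 5 mice labelled cold, 6 hours and the 5 mice labelled room temperature, 10 of the 35 mice sequenced, and covers every gene of the count table. All 10 were male C57BL/6J mice of 9 to 10 weeks on standard chow, the labels name no transgene or altered allele, and each gave its own library from 1 iBAT pad. Control mice stayed in the colony at 24 °C. Cold-exposed mice were kept for 6 hours in an incubator at 6 °C, singly, in static cages without nesting material. Whether control mice were housed singly or with nesting material was not given in the sources used here, so any effect of housing cannot be told apart from that of temperature. The hour of the day at which tissue was taken was not given for either group in the sources used here. Any effect of time of day therefore cannot be told apart from that of temperature, for any gene below. The RNA is from whole tissue, in which fewer cells of a type and less RNA per cell cannot be told apart.

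Brown fat makes heat by burning fatty acids and glucose in mitochondria whose inner membrane is made leaky to protons by UCP1. In the cold, sympathetic nerves release noradrenaline onto β-adrenergic receptors of the brown adipocyte. The receptors raise cAMP, protein kinase A is activated, stored triglyceride is broken down, and the transcription factor CREB turns on its target genes. Genes that respond without new protein synthesis are called immediate early genes, and many of them encode transcription factors or phosphatases that act on the signal itself.

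The libraries were alike in depth, with 3852831 to 5570725 counts per mouse. The library kit reads the 3′ end of polyadenylated RNA, and levels are given here as CPM (counts scaled to a common library size) after TMM scaling, which is not a measure per transcript length. Gm42418, a predicted gene, took 7.81% to 13.5% of counts, and genes of the mitochondrial genome took 38.4% to 41.3% of counts in control mice and 41.5% to 42.6% after 6 hours. The first principal component held 55.8% of the variance over the tested genes and separated the 5 cold-exposed mice from the 5 controls. The second held 10.9% and set control replicate 2 and cold replicate 5 apart from the other mice. In these mice the summed level of 26 skeletal muscle genes was 237.8 and 61.3 CPM, against 395 to 2404 CPM in the others. Defining markers of the labelled tissue were present. The 12 mature adipocyte genes summed to 22227 to 26428 CPM in controls and 22408 to 27005 CPM in the cold, and 3 of them were higher and 3 lower after 6 hours. The 20 genes of T, B and NK cells summed to 37.5 to 72.5 and 31.1 to 45.5 CPM, and Cd79a, the B cell receptor chain, had 0 counts in all 10 mice.

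Of 10593 genes tested with edgeR's quasi-likelihood test, 2280 (21.5%) were higher after 6 hours and 2225 (21.0%) were lower at a Benjamini-Hochberg adjusted p below 0.05. Genes are said to rise or fall below only where they passed that test. At least a 2-fold change was seen for 498 of the higher and 818 of the lower genes. The median log2 fold change over all tested genes was -0.03. With scaling by library size alone, the median of all genes moved by -0.19 on the log2 scale and the calls became 1342 higher and 3399 lower, and with the library size of nuclear genes without Gm42418 it moved by -0.10 and the calls became 1709 higher and 2801 lower. All levels and changes below are therefore relative to the TMM scale, and each ± is the SE of a log2 fold change with 5 mice in either group. Where 0 members of a list or class passed in a direction, 0 did so at an unadjusted p below 0.05 or by DESeq2 either, unless another number is given beside it. List counts are to be read against the shares of 21.5% and 21.0%, and where the balance of a list turned under another scaling, the counts on that scaling stand beside it.

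**Figure D1:**
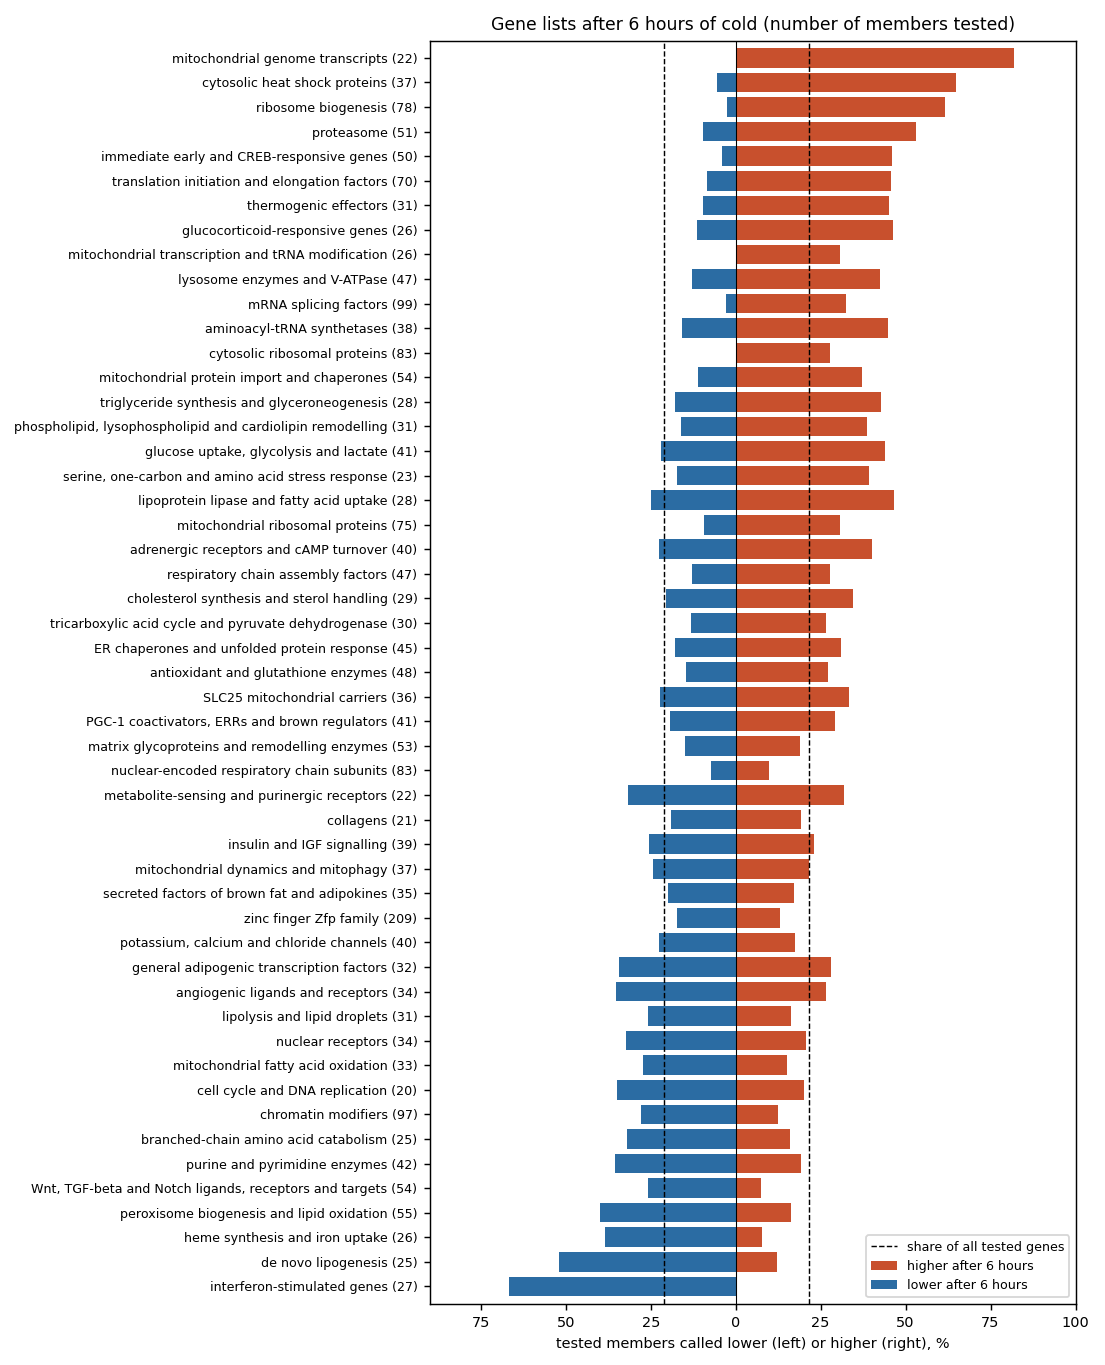
Share of tested members called higher (right, red) or lower (left, blue) after 6 hours of cold, in percent, for each gene list with at least 20 tested members other than cell type markers. The number tested is in parentheses and dashed lines mark the 21.5% and 21.0% of all genes. Mitochondrial genome transcripts, heat shock proteins and ribosome biogenesis stand at the top and interferon-stimulated genes and de novo lipogenesis at the bottom. On library size alone the balance turned to more lower than higher calls for the lists on cAMP turnover, PGC-1, cholesterol, the tricarboxylic acid cycle, respiratory chain subunits and assembly, mitochondrial ribosomal proteins, SLC25 carriers, antioxidants and matrix glycoproteins.

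Immediate early and CREB-responsive genes were among the lists with the largest shares of higher calls. Of 50 tested members, 23 rose and 2 fell, and the median log2 fold change was 0.47. The largest rise was that of Nr4a3, an orphan nuclear receptor induced by cAMP. Its level was 0.409, 4.28, 0.459, 0.522 and 1.36 CPM in the 5 control mice and 16.4, 59.0, 32.9, 61.8 and 47.6 CPM in the 5 cold-exposed mice. The groups did not overlap, although control replicate 2 stood well above the other controls, and the log2 fold change was 4.94 ± 0.44 (SE, n = 5 per group, edgeR adjusted p = 1.11e-07), or 5.92 without that mouse. Maff, a bZIP transcription factor, was at 0.204 to 1.55 CPM in controls and 6.02 to 13.7 CPM in the cold, a log2 fold change of 3.36 ± 0.37. Fosl2, a subunit of the AP-1 factor, was at 5.51 to 8.74 CPM and then 34.5 to 62.0 CPM, a log2 fold change of 2.98 ± 0.17. None of the 3 overlapped between groups. Atf3 and Gadd45g, both stress-inducible regulators, rose by 2.57 ± 0.37 and 2.55 ± 0.31 on the log2 scale. Nr4a1, a relative of Nr4a3, rose by 2.08 ± 0.38, or 2.72 without control replicate 2, and Crem, a cAMP-responsive repressor and activator, by 1.33 ± 0.16. Both members that fell are regulators too. Egr1, a zinc finger factor usually counted with the early responders, fell by 0.90 ± 0.28 (edgeR adjusted p = 0.0505 without control replicate 1), and Zfp36l2, an mRNA decay protein, fell by 0.81 ± 0.25 on the log2 scale.

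Dual-specificity phosphatases, several of which switch off MAP kinases, had more higher than lower calls. Of 16 dual-specificity phosphatase genes tested, 8 rose and 4 fell. Some of them, such as Dusp6, Dusp5 and Dusp1, are also counted in the immediate early list. Dusp6, Dusp8, Dusp5 and Dusp1, which act on MAP kinases, had log2 fold changes of 2.53 ± 0.20, 2.30 ± 0.38, 2.06 ± 0.41 and 1.91 ± 0.20. The members that fell were Dusp23, Dusp28, Dusp19 and Dusp22, with log2 fold changes from -1.33 to -0.60.

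The palindrome TGACGTCA, the cAMP response element to which CREB binds, was looked for on both strands in RefSeq promoters of build GRCm38.p6, from 250 bases before to 50 bases after each start. It was present in 1.79% of 32851 promoters. Among promoters of the immediate early list it was in 6 of 56, or 10.7%. In the list on adrenergic receptors and cAMP turnover it was in 2 of 88, or 2.27%, both of them promoters of Prkar1a. In the thermogenic list it was in 1 of 33, or 3.03%, that of Dio2. Of 302 tested genes with the element, 28.8% rose and 15.9% fell, against 21.5% and 21.0% of all tested genes. Of the list's other carriers, Btg2 and Plk2 did not pass the test and Areg had too few counts to test. Stretches around the element are shown for 5 genes, picked because they rose and belong to the immediate early, cAMP or thermogenic lists, each read 5′ to 3′ along the gene's strand, with the element in capitals. A match of letters is a description and not a measured binding site.
Dio2, chr12:90739096-90739163, minus strand: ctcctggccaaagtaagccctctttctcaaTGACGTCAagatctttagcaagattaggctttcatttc
Maff, chr15:79347461-79347528, plus strand: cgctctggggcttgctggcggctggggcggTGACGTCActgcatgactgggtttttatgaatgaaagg
Dusp1, chr17:26508578-26508645, minus strand: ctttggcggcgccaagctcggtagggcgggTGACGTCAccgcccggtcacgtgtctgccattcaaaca
Creb5, chr6:53287228-53287295, plus strand: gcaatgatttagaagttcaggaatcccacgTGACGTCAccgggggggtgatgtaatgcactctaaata
Prkar1a, chr11:109650870-109650937, plus strand: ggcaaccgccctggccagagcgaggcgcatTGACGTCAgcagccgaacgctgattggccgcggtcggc
In Creb5 the element overlaps an E-box, CACGTG, by its first bases. Counted from the start site, the element begins at position -95 in Dio2, -29 in Maff, -143 in Dusp1, -45 in Creb5 and -49 in Prkar1a. Creb5, a CREB family member, rose by 1.01 ± 0.21 and Prkar1a, a regulatory subunit that holds protein kinase A inactive, by 1.30 ± 0.10 on the log2 scale.

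Genes that carry and limit the cAMP signal moved in both directions. Of 40 tested members of the list on adrenergic receptors and cAMP turnover, 16 rose and 9 fell, which became 13 higher and 16 lower on library size alone. Adcy3, an adenylyl cyclase that makes cAMP, was at 54.6, 49.8, 47.1, 37.6 and 29.7 CPM in controls and 246, 316, 337, 317 and 287 CPM after 6 hours. All cold-exposed mice stood above the controls, and the log2 fold change was 2.78 ± 0.15 (edgeR adjusted p = 2.82e-10). Adcy4 rose by 1.53 ± 0.19, while Adcy9, another cyclase, fell by 1.37 ± 0.14 on the log2 scale. Adrb3, the main β-adrenergic receptor of rodent brown adipocytes, was at 63.0 to 146 CPM in controls and 24.1 to 65.3 CPM in the cold, ranges that met, and had a log2 fold change of -1.12 ± 0.23 (edgeR adjusted p = 8.21e-04). Arrb1, an arrestin that uncouples such receptors, fell by 1.20 ± 0.26. The phosphodiesterases Pde7b, Pde1c and Pde4d, which break cAMP down, rose by 1.61 ± 0.26, 1.55 ± 0.42 and 1.49 ± 0.13, and Pde5a, which acts on cGMP, fell by 1.29 ± 0.28 on the log2 scale. Over all 14 phosphodiesterase genes tested, several of which are also counted in the cAMP list, 6 rose and 4 fell. This balance turned to 4 higher and 7 lower on library size alone. It was 4 higher and 5 lower on the nuclear library size and with upper quartile factors.

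Among thermogenic effectors, 14 of 31 tested genes rose and 3 fell. Dio2, the deiodinase that makes active thyroid hormone in the cell, rose by 5.41 ± 0.43 and Ucp1 by 1.90 ± 0.17 on the log2 scale. Dio2 ranged over 11.1 to 85.6 CPM in controls and 1550.0 to 1706 CPM in the cold, so that in proportion the control mice lay much farther apart than the cold-exposed mice. Elovl3, an elongase of very long chain fatty acids, was at 14.1, 5.51, 5.97, 4.53 and 0.777 CPM in controls and 218, 87.4, 196, 151 and 102 CPM in the cold. It did not overlap between groups and had a log2 fold change of 4.62 ± 0.38. Gk, the glycerol kinase that lets brown fat reuse glycerol, rose by 2.62 ± 0.24, and Ffar4, a receptor for long chain fatty acids, by 2.30 ± 0.21 on the log2 scale. The list's falling members were Thrsp, a regulator of lipogenesis, at -1.60 ± 0.19, Adrb3, and Pm20d1, an enzyme of N-acyl amino acids, at -0.99 ± 0.26.

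Ppargc1a, the coactivator that drives mitochondrial gene programs, rose by 3.62 ± 0.22 and Perm1, a muscle and fat regulator induced by it, by 1.99 ± 0.21 on the log2 scale. The list of PGC-1 coactivators, ERRs and brown regulators had 12 higher and 8 lower of 41 tested, and 11 higher and 15 lower on library size alone. Several nuclear receptors of lipid and hormone signals fell. Ppara, the fatty acid sensor, fell by 1.19 ± 0.12 and Thra, a thyroid hormone receptor, fell by 1.03 ± 0.10 on the log2 scale. In the list of nuclear receptors, 7 of 34 rose and 11 fell. Esr1, the oestrogen receptor α, was at 31.5 to 38.7 CPM in controls and 6.18 to 10.9 CPM in the cold, a log2 fold change of -2.29 ± 0.15. Vdr, the vitamin D receptor, rose by 1.70 ± 0.33. Of 32 general adipogenic factors, 9 rose and 11 fell, a balance that turned without any 1 of 6 mice and was 10 higher and 7 lower without control replicate 5. Cebpa fell by 1.26 ± 0.11 and Srebf1 fell by 1.80 ± 0.14 while Cebpb rose by 1.35 ± 0.16 on the log2 scale. Pparg, the central factor of fat cell identity, had a log2 fold change of 0.19 ± 0.13 and did not pass the test (edgeR adjusted p = 0.259), and on library size alone its sign turned.

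The 15 genes with the largest rises and the 15 with the largest falls, as the naming rule selects them, hold several enzymes and receptors outside the classical thermogenic set. Gmpr, which converts GMP to IMP, was at 101, 99.9, 108, 119 and 81.2 CPM in controls and 2196, 3775, 3081, 4233 and 3784 CPM in the cold, a log2 fold change of 5.07 ± 0.17 (edgeR adjusted p = 1.63e-12). The cold-exposed mice all lay far above the controls. Cldn1, a tight junction protein, was at 1.17 to 3.31 CPM and 42.5 to 67.9 CPM, a log2 fold change of 4.58 ± 0.22. Cdkn1a, the cell cycle inhibitor p21, rose by 3.72 ± 0.18, Dhrs9, a short chain dehydrogenase, by 3.48 ± 0.31, and Noct, the clock-linked phosphatase nocturnin, by 3.35 ± 0.30 on the log2 scale. Mfsd2a, which takes up lysophospholipids, had 2, 4, 0, 0 and 0 counts in the controls and 214, 323, 341, 302 and 555 counts in the cold, and Acot5, a peroxisomal acyl-CoA thioesterase, had 0 counts in all 5 controls and 47, 110, 103, 162 and 177 in the cold. Against a floor of 3 counts per library, Acot5 was at least 45.7-fold higher.

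**Figure D2:**
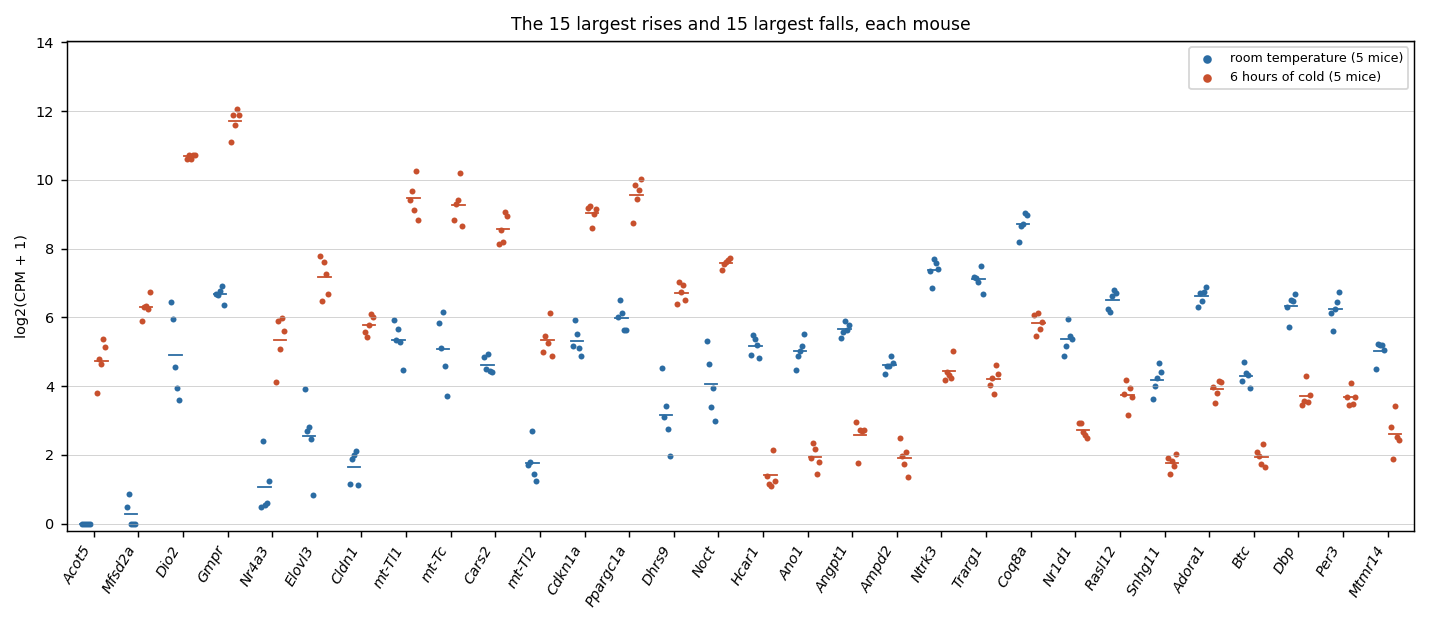
Level of the 15 genes with the largest rises and the 15 with the largest falls in each mouse, as log2(CPM + 1) on the vertical axis. Blue points are the 5 control mice, red points the 5 mice after 6 hours of cold, and short lines the group means. Red and blue points of a gene do not overlap, as the rule for these genes requires, and Dio2 spans 11.1 to 85.6 CPM among controls.

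Among the largest falls, Hcar1, the lactate receptor that restrains lipolysis, was at 29.2, 44.2, 40.4, 35.9 and 27.2 CPM in controls and 1.64, 1.21, 1.16, 3.46 and 1.35 CPM after 6 hours. No cold-exposed mouse reached the lowest control, and the log2 fold change was -4.32 ± 0.24 (edgeR adjusted p = 4.89e-10). Ano1, a calcium-activated chloride channel, fell by 3.46 ± 0.23 on the log2 scale. Angpt1, the ligand that keeps vessels quiescent through Tie2, went from 41.5, 47.1, 59.0, 48.2 and 53.6 CPM to 6.84, 2.43, 5.56, 5.44 and 5.59 CPM, a log2 fold change of -3.27 ± 0.18. Ampd2, which converts AMP to IMP, fell by 3.05 ± 0.21, Ntrk3, the neurotrophin-3 receptor, fell by 2.97 ± 0.18, and Trarg1, a regulator of GLUT4 trafficking, fell by 2.97 ± 0.17 on the log2 scale. Coq8a, needed for coenzyme Q synthesis, was at 292 to 528 CPM in controls and 43.0 to 68.6 CPM in the cold, a log2 fold change of -2.91 ± 0.16. Adora1, the adenosine A1 receptor that lowers cAMP, was at 78.3 to 118 CPM in controls and 10.4 to 16.8 CPM in the cold, a log2 fold change of -2.79 ± 0.14. Rasl12, Snhg11, Btc and Mtmr14 had log2 fold changes of -2.84 ± 0.17, -2.84 ± 0.24, -2.72 ± 0.21 and -2.55 ± 0.23.

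Reads on mitochondrial tRNAs rose in the cold. The genome of mitochondria is read as long transcripts that are cut apart at the tRNAs lying between the rRNA and mRNA genes. Of its 37 genes, 22 had enough counts to test, and 18 rose and 0 fell (1 by DESeq2 and 1 at an unadjusted p below 0.05), with a median log2 fold change of 2.04. On library size alone 17 were higher and 1 lower. All 12 tested tRNAs rose, by 1.96 to 4.16 on the log2 scale. Together the tRNAs held 0.030% to 0.086% of all counts in controls and 0.227% to 0.568% in the cold, so the groups did not overlap. The 2 rRNAs changed far less, mt-Rnr1 by 0.40 ± 0.09 and mt-Rnr2 by 0.32 ± 0.09, the latter 0.13 and not called on library size alone. Of 8 tested mRNAs, 4 rose, namely mt-Nd3 by 1.22 ± 0.23, mt-Nd6 by 0.66 ± 0.17, mt-Co1 by 0.59 ± 0.10 and mt-Nd5 by 0.52 ± 0.10 on the log2 scale. The others, mt-Nd1, mt-Nd2, mt-Nd4 and mt-Cytb, had log2 fold changes between -0.21 and 0.16 and did not pass the test. On library size alone mt-Nd4 was called lower, at -0.40, as it was by DESeq2, and the values of the other 3 turned negative without a call. The largest mRNA rise, that of mt-Nd3, rests on 84 to 187 counts per control mouse, where mt-Nd1 had 113136 to 122963. The mRNA genes mt-Co2, mt-Atp6 and mt-Co3, which lie before mt-Nd3 on the genome, had at most 6 counts in any mouse. Why reads were so few on this stretch was not tested, and a loss in mapping or counting cannot be told apart from low levels.

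The 3 tRNAs with the largest rises are shown as DNA from the GENCODE M21 transcripts of build GRCm38, 5′ to 3′ along their own strand, with the anticodon in capitals, because reads on them carried the largest changes of any mitochondrial gene.
mt-Tl1 (leucine), chrM:2676-2750, plus strand: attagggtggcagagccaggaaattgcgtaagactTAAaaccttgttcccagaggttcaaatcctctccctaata
mt-Tc (cysteine), chrM:5192-5257, minus strand: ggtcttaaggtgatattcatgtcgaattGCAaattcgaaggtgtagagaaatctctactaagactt
mt-Tl2 (leucine), chrM:11671-11741, plus strand: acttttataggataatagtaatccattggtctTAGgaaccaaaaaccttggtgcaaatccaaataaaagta
Reads on mt-Tl1, which lies between mt-Rnr2 and mt-Nd1, were at 59.5, 40.0, 50.1, 38.3 and 21.2 CPM in the controls and 679, 820.2, 559, 1218 and 452 CPM after 6 hours. The log2 fold change was 4.16 ± 0.27 (edgeR adjusted p = 3.06e-09). Its neighbour mt-Nd1 had a log2 fold change of 0.09 ± 0.10. mt-Tc, which lies on the other strand, was at 56.2, 33.9, 70.5, 22.8 and 12.0 CPM in controls and 456, 626, 684, 1179 and 405 CPM in the cold, a log2 fold change of 4.11 ± 0.38. mt-Tl2, which precedes mt-Nd5, had a log2 fold change of 4.00 ± 0.31. Such reads may come from finished tRNAs or from longer precursors, which a count per gene cannot tell apart. Whether the counting used strand is not given in the sources used here, so RNA read from the opposite strand across a tRNA gene could also be counted on it. The kit selects polyadenylated RNA, so the values are of RNA that the oligo(dT) primer captured.

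**Figure D3:**
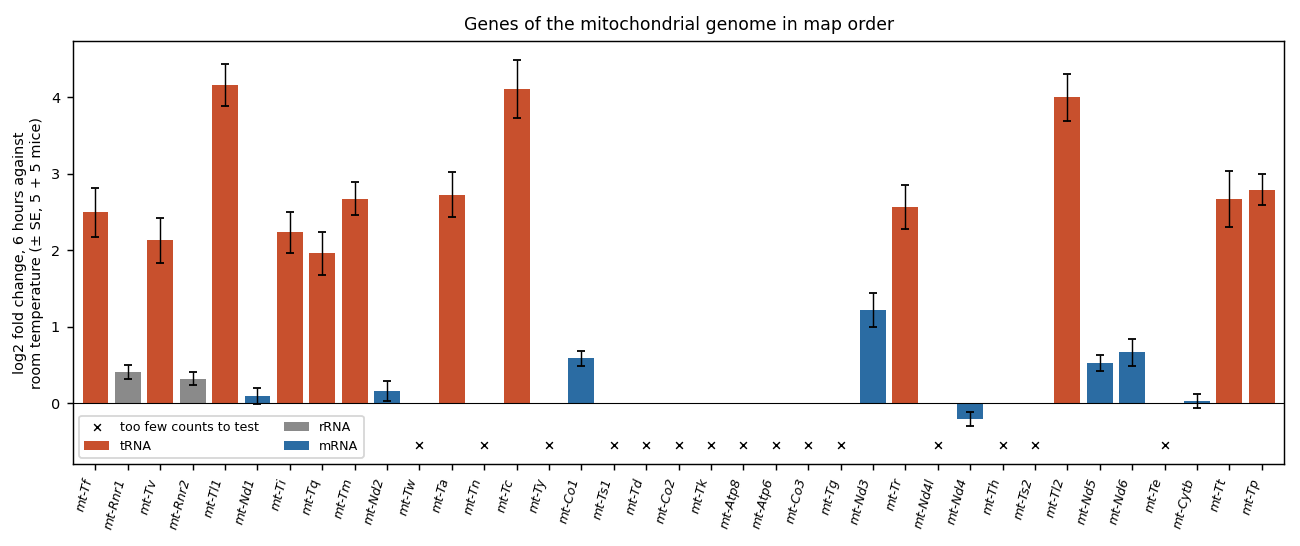
Log2 fold change, 6 hours of cold against room temperature, of each mitochondrial gene in its order along the genome, with bars for the estimate and whiskers for the SE (5 mice per group). tRNAs (red) stand between 1.96 and 4.16, rRNAs (grey) at 0.40 and 0.32 and mRNAs (blue) between -0.21 and 1.22, and crosses mark genes with too few counts to test.

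Among nuclear genes that serve mitochondrial RNA, Cars2 stood out in size. Cars2, the mitochondrial cysteinyl-tRNA synthetase that charges mt-Tc, was at 27.6, 21.6, 29.4, 20.9 and 20.4 CPM in controls and 283, 370.1, 291, 535 and 493 CPM after 6 hours, a log2 fold change of 4.04 ± 0.19 (edgeR adjusted p = 6.76e-11). Of 17 mitochondrial synthetases tested, 2 rose and 4 fell, Cars2 included (2 and 1 without control replicate 4 or cold replicate 4). In the list of mitochondrial transcription and tRNA modification, 8 of 26 genes rose and 0 fell (1 at an unadjusted p below 0.05), which became 5 higher and 3 lower on library size alone. Trmt10c, a subunit of the nuclease that cuts the 5′ ends of mitochondrial tRNAs, rose by 1.38 ± 0.13, and Fastkd5 and Fastkd2, which process mitochondrial mRNA, by 1.41 ± 0.20 and 1.06 ± 0.18. Mterf3 and Trmu rose by 0.95 ± 0.18 and 0.78 ± 0.21 on the log2 scale.

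Few nuclear genes of the respiratory chain passed the test. Of 83 subunit genes tested, 8 rose and 6 fell, or 9.64% and 7.23% beside the 21.5% and 21.0% of all genes, with a median log2 fold change of 0.01. On library size alone the counts were 1 higher and 26 lower, and on the nuclear library size 3 higher and 15 lower. With upper quartile factors the counts were 3 higher and 13 lower. Without cold replicate 3 or 4 they were 3 higher and 6 lower. Cycs, cytochrome c, rose by 0.64 ± 0.09 and Atpif1, the inhibitor of ATP synthase, fell by 0.56 ± 0.14. Assembly factors had 13 higher and 6 lower of 47 (8 higher and 12 lower on library size alone), led by Ndufaf4 at 1.04 ± 0.09 and Sco2 at 0.98 ± 0.13. Protein import had 20 higher and 6 lower of 54, with Hspe1, the matrix co-chaperonin, at 1.18 ± 0.09, Timm22 at 0.95 ± 0.15 and Tomm20 at 0.85 ± 0.20, and Oma1, a stress protease, at -1.56 ± 0.22 on the log2 scale. Of 36 SLC25 carriers, 12 rose and 8 fell (7 higher and 13 lower on library size alone, and 4 lower without cold replicate 3). Slc25a34, Slc25a17, a peroxisomal carrier, and Slc25a25, an ATP-Mg/phosphate carrier, rose by 2.23 ± 0.29, 1.90 ± 0.15 and 1.42 ± 0.27. Mitochondrial ribosomal proteins had 23 higher and 7 lower of 75, but 9 higher and 15 lower on library size alone and 3 lower without cold replicate 2. Genes of mitophagy and dynamics were split at 8 higher and 9 lower of 37 (8 and 7 without control replicate 1 or 4), with Flcn, folliculin, at 1.66 ± 0.16.

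Most tested genes of ribosome biogenesis rose. This list holds the nucleolar factors and RNA polymerase I subunits that make and fold ribosomal RNA. Of 78 genes tested, 48 rose and 2 fell, with a median log2 fold change of 0.56, and on library size alone 31 higher and 5 lower. Bysl, a factor of the small subunit, was at 10.2, 8.56, 11.9, 10.3 and 7.96 CPM in controls and 29.3, 28.6, 25.7, 26.9 and 20.8 CPM in the cold. The groups did not overlap and the log2 fold change was 1.42 ± 0.14. Nop2, an rRNA methyltransferase, rose by 1.29 ± 0.15, Rrp9 by 1.24 ± 0.23 and Rrp15 by 1.12 ± 0.25 on the log2 scale. Ncl, nucleolin, rose by 0.49 ± 0.09, and Dkc1, the pseudouridine synthase dyskerin, fell by 1.16 ± 0.13. The proteins of the finished cytosolic ribosome moved less. Of 83 tested, 23 rose and 0 fell with a median of 0.16, and on library size alone the median was -0.03 with 7 higher and 5 lower.

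Translation factors and tRNA synthetases had more higher than lower calls. Of 70 translation factor genes, 32 rose and 6 fell. Eif2b3, a subunit of the exchange factor for eIF2, rose by 1.20 ± 0.12, and Eif1a by 1.19 ± 0.11. Some members that fell act against initiation, as background from their known roles, with Eif4ebp1, the eIF4E-binding protein, at -1.57 ± 0.14 and Eif2ak2, the kinase PKR, at -1.33 ± 0.26 on the log2 scale. Cytosolic aminoacyl-tRNA synthetases had 14 higher and 2 lower of 20 tested, such as Wars at 0.90 ± 0.15. Of 99 splicing factors, 32 rose and 3 fell, with Rbm47 at 1.68 ± 0.17 and Rbm38 at -1.65 ± 0.31. In the amino acid stress list, 9 of 23 rose and 4 fell. Cth, the cystathionine lyase that makes cysteine, rose by 1.58 ± 0.35, Mthfd2 by 1.33 ± 0.30 and Atf4, the factor that drives the list, by 1.32 ± 0.13, while Slc1a5, a glutamine carrier, fell by 2.15 ± 0.13 on the log2 scale.

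Cytosolic heat shock proteins had the largest share of higher calls, 64.9%, among nuclear lists with at least 20 tested genes. They fold new or damaged proteins under the control of the factor HSF1. Of 37 tested, 24 rose and 2 fell, with a median log2 fold change of 0.60, and on library size alone 20 higher and 3 lower. Hsph1, a large member of the HSP70 family, was at 8.17, 15.1, 10.6, 8.36 and 9.13 CPM in controls and 60.2, 100.2, 88.5, 103 and 97.8 CPM after 6 hours. All cold-exposed mice exceeded all controls, with a log2 fold change of 3.14 ± 0.18 (edgeR adjusted p = 5.52e-10). Hspa8, the constitutive HSP70, went from 66.0, 86.9, 68.7, 73.8 and 62.9 CPM to 377, 532, 460.2, 439 and 419 CPM, a log2 fold change of 2.64 ± 0.12. Hsp90aa1, the inducible HSP90, rose by 2.20 ± 0.17, and the co-chaperones Hspb8, Hspa4l and Chordc1 by 1.77 ± 0.16, 1.71 ± 0.15 and 1.69 ± 0.11 on the log2 scale. Hspa1a and Hspa1b, 2 nearly identical genes whose reads cannot be assigned with certainty, had too few counts to test, 2 to 14 and 5 to 12 in controls and 4 to 23 and 6 to 25 in the cold. Hspa12a fell by 1.38 ± 0.23 and Hspb6 fell by 1.06 ± 0.36, of which Hspb6 lost its call without any 1 of 5 mice (edgeR adjusted p up to 0.0751, without control replicate 3).

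The paired half-sites GAANNTTC to which HSF1 binds were present in 7.86% of all promoters and in 16 of 48 promoters of the heat shock list, or 33.3%, counted on both strands. These 48 promoters belong to 35 genes, and among the promoters with the letters Hsph1 and Dnajb6 were counted more than once. Of 552 tested genes with these letters, 23.6% rose and 20.5% fell, close to the 21.5% and 21.0% of all tested genes. Within the heat shock list the letters also occur in promoters of Hspb6, which fell, of Dnajb6, Fkbp4 and Stub1, which had log2 fold changes of 0.01 ± 0.16, 0.25 ± 0.11 and -0.03 ± 0.12 and did not pass the test, and of Hspa1a, Hspa1b and Hspb3, which had too few counts to test. The letters are shown in capitals for 4 genes picked because they rose, 5′ to 3′ along the gene's strand in build GRCm38.p6.
Hsph1, chr5:149636266-149636325, minus strand: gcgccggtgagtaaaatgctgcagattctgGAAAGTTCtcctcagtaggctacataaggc
Hspb1, chr5:135887772-135887859, plus strand: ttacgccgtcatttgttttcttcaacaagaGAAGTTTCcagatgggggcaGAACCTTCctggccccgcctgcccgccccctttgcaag
Dnaja4, chr9:54699439-54699544, plus strand: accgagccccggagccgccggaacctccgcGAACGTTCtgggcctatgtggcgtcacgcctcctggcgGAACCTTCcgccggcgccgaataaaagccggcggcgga
Chordc1, chr9:18292233-18292310, plus strand: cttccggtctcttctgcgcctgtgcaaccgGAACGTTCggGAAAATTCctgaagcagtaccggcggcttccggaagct
Hspb1, the small heat shock protein HSP25, rose by 1.43 ± 0.19 and Dnaja4, a J-domain co-chaperone, by 1.57 ± 0.21 on the log2 scale.

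The cytosolic chaperonin, which folds actin and tubulin, had only higher calls, under either scaling. Of 16 CCT and prefoldin subunits tested, 11 rose and 0 fell, led by Cct3 at 1.17 ± 0.09 and Cct2 at 0.78 ± 0.09. Cirbp, an RNA-binding protein whose mRNA is known to rise when cells are cooled and to fall when they are warmed, fell. Its level was 16.8, 13.1, 15.6, 20.2 and 15.5 CPM in controls and 4.92, 2.67, 4.40, 4.45 and 3.85 CPM in the cold, 4.01-fold lower (edgeR adjusted p = 2.32e-07). Rbm3, the related cold-inducible protein, had a log2 fold change of 0.55 ± 0.24 and did not pass the test (edgeR adjusted p = 0.0689), although it was called higher without control replicate 5, at 0.70. The endoplasmic reticulum list was more mixed, with 14 higher and 8 lower of 45. Manf, a secreted ER stress protein, rose by 1.76 ± 0.15 and Hspa5, the chaperone BiP, by 0.66 ± 0.10, while Pdia5, a disulfide isomerase, fell by 2.51 ± 0.31 and Xbp1, a driver of the unfolded protein response, fell by 0.83 ± 0.14 on the log2 scale.

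Proteasome subunits moved in opposite directions by type. The enzyme degrades ubiquitin-tagged proteins through a 20S core capped by a 19S particle, and immune cells and cells under interferon exchange core subunits for immunoproteasome forms. Of 51 genes tested, 27 rose and 5 fell, with a median log2 fold change of 0.30. The division by type was made after the values were seen. Of 20 genes with a Psmc or Psmd symbol, the class of the 19S particle and factors of its assembly, 15 rose. Of 14 constitutive core genes 8 rose, and none was lower in either class. Psmd6 and Psmc4 of the 19S particle rose by 1.01 ± 0.13 and 0.93 ± 0.13, and Psmb5, a catalytic core subunit, by 0.77 ± 0.19 on the log2 scale. The genes that fell were the 3 immunoproteasome subunits and the 2 subunits of the interferon-inducible activator PA28. Psmb9, which takes a catalytic place in the immune form, was at 17.6, 14.5, 15.2, 9.93 and 32.4 CPM in controls and 6.02, 5.82, 6.26, 6.18 and 4.81 CPM in the cold, a log2 fold change of -1.62 ± 0.27. Psmb8, Psme2, Psmb10 and Psme1 had log2 fold changes of -1.34 ± 0.27, -0.80 ± 0.17, -0.72 ± 0.24 and -0.68 ± 0.13. Psmb10 lost its call without control replicate 5 (-0.46, edgeR adjusted p = 0.0896), without cold replicate 3 (-0.63, adjusted p = 0.0615) and without cold replicate 4 (-0.60, adjusted p = 0.0636). In the lysosome, 12 of 15 V-ATPase subunit genes rose and none fell, such as Atp6v0b at 0.97 ± 0.09 and Atp6v1d at 0.95 ± 0.10, while of 32 other lysosomal genes 8 rose and 6 fell (7 and 8 without cold replicate 1).

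Most interferon-stimulated genes fell. Of 27 tested, 18 fell, or 66.7%, and 0 rose, with a median log2 fold change of -1.08. The 10 tested guanylate-binding proteins and immunity-related GTPases, a class picked out after the values were seen, all fell, with log2 fold changes from -2.19 to -1.17. Gbp5, a GTPase of cell-autonomous defence, was at 7.15, 2.45, 8.96, 9.58 and 14.6 CPM in controls and 2.19, 1.70, 1.16, 3.71 and 0.77 CPM in the cold. The log2 fold change was -2.19 ± 0.43 (edgeR adjusted p = 4.98e-04). Gbp3 fell by 1.83 ± 0.28, Gbp9 fell by 1.68 ± 0.39, Iigp1 fell by 1.68 ± 0.28 and Igtp fell by 1.59 ± 0.28. Of 14 genes of antigen presentation, 6 fell and 1 rose (3 fell without control replicate 3 or cold replicate 2). Tap1, the peptide transporter for class I, fell by 2.19 ± 0.26 and the class I heavy chains H2-K1 and H2-D1 had log2 fold changes of -0.73 ± 0.13 and -0.53 ± 0.12. The class II chain H2-Aa had a log2 fold change of -0.15 ± 0.11 and did not pass the test, though it was called lower on library size alone, at -0.33. Of 18 chemokine, cytokine and acute inflammation genes, 4 rose and 4 fell. Cxcl9, an interferon-γ target chemokine, fell by 1.95 ± 0.20, Il15 fell by 2.16 ± 0.36 and Relb fell by 1.55 ± 0.33, while Ccl6 and Ccl9, chemokines of myeloid cells, rose by 1.99 ± 0.24 and 1.71 ± 0.24 and Socs2, a feedback inhibitor of cytokine signals, by 2.12 ± 0.23. Control replicate 5 had the highest level of Psmb9, Gbp5, Iigp1 and Tap1, and also of the summed resident macrophage genes. Without it, 17 interferon-stimulated genes fell and 0 rose with a median of -0.93, and 9 of the 10 GTPases fell with a median of -1.28. The 21 resident macrophage genes summed to 149 to 359 CPM in controls and 175 to 215 CPM in the cold, with 2 higher and 2 lower of 18 tested. The part of immune cell numbers in the interferon result was not tested.

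**Figure D4:**
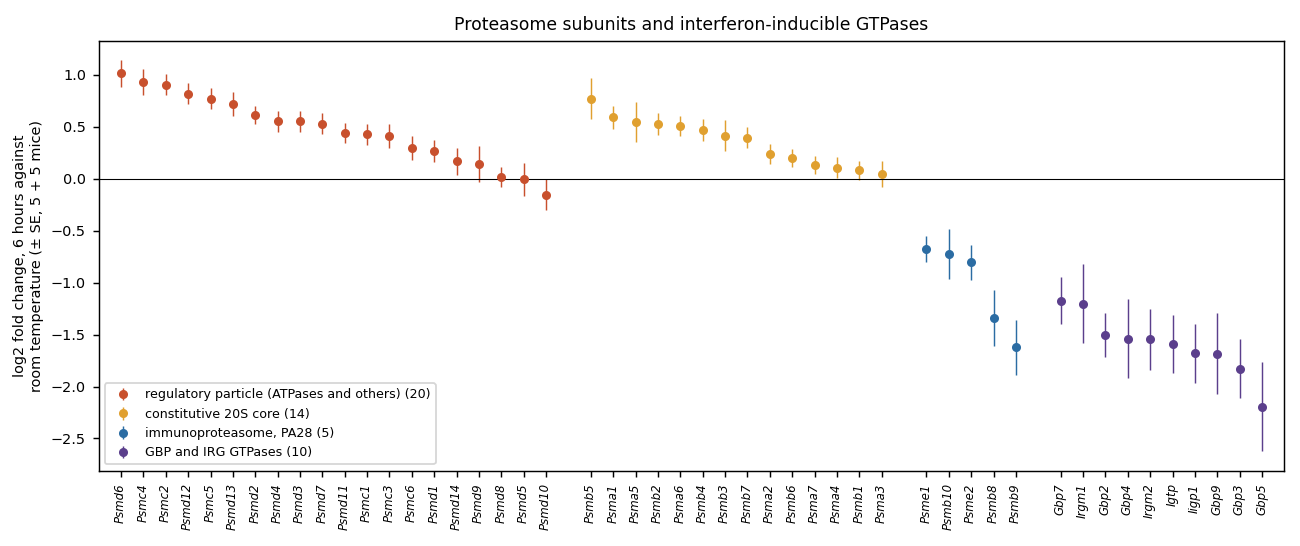
Log2 fold change, 6 hours of cold against room temperature, of proteasome subunits and interferon-inducible GTPases, with points for the estimate and whiskers for the SE (5 mice per group). The class labelled regulatory particle (19S) holds every gene with a Psmc or Psmd symbol, factors of its assembly included. This class and the constitutive core genes reach 1.01. The 5 immunoproteasome and PA28 genes stand between -1.62 and -0.68 and the 10 GTPases between -2.19 and -1.17.

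In lipid uptake and storage, more genes rose than fell. Lipoprotein lipase and fatty acid uptake had 13 higher and 7 lower of 28. Lpl, which frees fatty acids from circulating triglyceride, was at 3320.4, 3735, 2981, 3085 and 2925 CPM in controls and 7538, 7782, 7575, 8027 and 9180.1 CPM in the cold, a log2 fold change of 1.32 ± 0.10 (edgeR adjusted p = 1.09e-08). Angptl4, the secreted inhibitor of that enzyme, went from 80.3, 146, 110.0, 102 and 84.7 CPM to 33.9, 30.3, 28.5, 30.9 and 30.8 CPM, a log2 fold change of -1.76 ± 0.14. Lipg, the endothelial lipase, rose by 2.27 ± 0.38 and Cd36, a fatty acid transporter, by 0.40 ± 0.10 (0.21 and not called on library size alone), and Vldlr, a lipoprotein receptor, was 2.84-fold lower. Triglyceride synthesis had 12 higher and 5 lower of 28. The 2 acyltransferases of its last step moved apart, with Dgat1 at 1.53 ± 0.12 and Dgat2 at -0.90 ± 0.13. In phospholipid remodelling, 12 of 31 rose and 5 fell (8 higher and 8 lower on library size alone, and 3 lower without cold replicate 5). Lclat1, a lysocardiolipin acyltransferase, rose by 2.64 ± 0.19 and Taz, the cardiolipin transacylase tafazzin, fell by 0.86 ± 0.14.

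In de novo lipogenesis most calls were lower. This pathway builds fatty acids from citrate under the factor SREBP-1, and 13 of 25 tested genes fell and 3 rose, with a median log2 fold change of -0.53. Acly, which splits citrate to make acetyl-CoA, was at 503, 78.1, 547, 252 and 253 CPM in controls and 101 ± 19.9 CPM (SD, n = 5), with a lowest value of 70.1, in the cold. Control replicate 2 lay within the range of the cold-exposed mice, the other controls lay above it, and the log2 fold change was -1.69 ± 0.34 (edgeR adjusted p = 6.23e-04). Aacs fell by 1.83 ± 0.18 and Fasn, the fatty acid synthase, fell by 1.34 ± 0.36 on the log2 scale. Elovl6, an elongase of the same pathway, rose by 1.20 ± 0.17. Lipolysis and lipid droplet genes were divided, with 5 higher and 8 lower of 31 (7 and 6 without cold replicate 2). Abhd5, the activator of adipose triglyceride lipase, rose by 1.02 ± 0.13, Plin2, a droplet coat protein, by 0.88 ± 0.14, and Lipe, hormone-sensitive lipase, fell by 0.69 ± 0.12 on the log2 scale.

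In fat oxidation, more genes fell than rose. Of 33 genes of mitochondrial β-oxidation, 5 rose and 9 fell (3 rose without control replicate 4 or 5 or cold replicate 3 or 4), with Slc22a5, the carnitine carrier, at 0.94 ± 0.22 and Acad12 at -1.26 ± 0.19. Of 55 peroxisomal genes, 9 rose and 22 fell, or 40.0% lower. Abcd2, a peroxisomal importer of very long chain acyl-CoA, fell by 1.65 ± 0.16, and Crot, the carnitine octanoyltransferase, fell by 1.63 ± 0.17 on the log2 scale. Acyl-CoA thioesterases, which free fatty acids from CoA, had 6 higher and 2 lower of 11. Besides Acot5, Acot8, Them4, Acot6 and Acot4 rose by 1.33 ± 0.17, 1.31 ± 0.15, 1.13 ± 0.17 and 1.05 ± 0.19, and Acot13 fell by 0.80 ± 0.11 on the log2 scale. Acot4, Acot5 and Acot6 are neighbouring paralogs with similar sequences, so reads could have been divided among them in counting. Cholesterol synthesis was split between steps, with 10 higher and 6 lower of 29 (7 higher and 8 lower on library size alone). Fdft1, squalene synthase, fell from 19.2, 24.3, 25.3, 27.2 and 28.4 CPM to 5.47, 3.15, 4.87, 4.94 and 5.59 CPM, a log2 fold change of -2.36 ± 0.17, and Dhcr7, which makes the last reduction, fell by 1.97 ± 0.33.

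Sugar metabolism had more higher than lower calls. Of 41 genes of glucose uptake, glycolysis and lactate, 18 rose and 9 fell. Pfkp, a phosphofructokinase, rose by 2.11 ± 0.12, Pfkfb3, which makes its activator, by 1.56 ± 0.16, Hk2, hexokinase 2, by 1.54 ± 0.12 and Gys2, a glycogen synthase, by 1.49 ± 0.16 on the log2 scale. Pygb, a glycogen phosphorylase, fell by 1.76 ± 0.16 and Slc16a7, a monocarboxylate carrier, fell by 1.69 ± 0.18. Got1, the cytosolic aspartate aminotransferase of the malate-aspartate shuttle, was at 14.5, 9.18, 18.4, 10.1 and 10.7 CPM in controls and 85.9, 112, 127, 92.4 and 122 CPM in the cold, a log2 fold change of 3.11 ± 0.17 (edgeR adjusted p = 4.89e-10). The rest of its list, the tricarboxylic acid cycle and pyruvate dehydrogenase, had 8 higher and 4 lower of 30 with Got1 included (5 higher without control replicate 4). The list had 3 higher and 10 lower on library size alone, and 5 higher and 7 lower on the nuclear library size. Bdh1, the ketone body dehydrogenase, had 1, 0, 2, 0 and 1 counts in controls and 19, 17, 53, 29 and 47 counts in the cold. Branched-chain amino acid catabolism had 4 higher and 8 lower of 25 (5 lower without control replicate 3 or cold replicate 2), with Ppm1k, the phosphatase that activates its main dehydrogenase, at -2.11 ± 0.14 and Slc3a2, an amino acid carrier chain, at 2.59 ± 0.12 on the log2 scale. Of 42 nucleotide enzymes, 15 fell and 8 rose. Beside Gmpr and Ampd2, Upp1, uridine phosphorylase, rose by 2.69 ± 0.49 and Cad, which begins pyrimidine synthesis, fell by 1.32 ± 0.17.

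Antioxidant and iron genes were led by Hmox1, the enzyme that degrades heme. Its level was 1.23, 0.816, 0.919, 1.39 and 0.583 CPM in controls and 25.4, 35.2, 16.5, 18.0 and 14.6 CPM in the cold, and the log2 fold change was 4.42 ± 0.31 (edgeR adjusted p = 7.85e-09). Srxn1, Gclm and Glrx, which handle oxidized thiols and glutathione, rose by 1.82 ± 0.15, 1.11 ± 0.14 and 1.09 ± 0.22. The list had 13 higher and 7 lower of 48 (10 higher and 15 lower on library size alone, and 4 lower without cold replicate 4). Heme synthesis and iron uptake fell in 10 of 26 genes and rose in 2. Alas1, the first enzyme of heme synthesis outside red cells, fell by 0.97 ± 0.15, Alad fell by 1.08 ± 0.15 and Slc40a1, the iron exporter, fell by 1.32 ± 0.16, and Ftl1, a ferritin chain, rose by 1.39 ± 0.19 on the log2 scale.

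Genes of the circadian clock moved in both directions. In the clock, ARNTL with CLOCK turns on the Per, Cry and Nr1d genes, whose products then repress it, and NR1D1 represses Arntl. Of 13 core genes tested, 7 rose and 3 fell. Arntl was at 1.23, 1.22, 1.38, 1.57 and 2.33 CPM in controls and 15.9, 18.7, 16.7, 23.5 and 16.4 CPM in the cold, a log2 fold change of 3.53 ± 0.22 (edgeR adjusted p = 1.56e-09). Nr1d1 was at 28.6, 35.1, 60.6, 43.2 and 40.6 CPM and then 6.56, 6.55, 5.33, 4.94 and 4.62 CPM, a log2 fold change of -2.90 ± 0.20. Neither gene overlapped between the groups. Per3 fell by 2.68 ± 0.19, while Cry1, Per2 and Per1 rose by 1.80 ± 0.20, 1.26 ± 0.14 and 1.06 ± 0.15 on the log2 scale. Among output and stabilizing genes, 4 of 15 rose and 7 fell. Dbp, which activates D-box genes, was at 52.2 to 102 CPM in controls and 9.85 to 18.5 CPM in the cold, a log2 fold change of -2.71 ± 0.19. Nfil3, which represses the same boxes, was at 2.85 to 5.72 CPM and then 14.5 to 25.2 CPM, a log2 fold change of 2.47 ± 0.21. Hlf, Bhlhe41 and Bhlhe40 had log2 fold changes of -1.59 ± 0.16, -1.63 ± 0.19 and -1.62 ± 0.27. These genes cycle over the day in mice kept at 1 temperature. Since the hours of collection were not given, time of day and cold cannot be told apart for these or any other genes. The E-box CACGTG was in 3 of 19 promoters of the core list and 3 of 14 of the output list, against 7.15% of all promoters. Of 988 tested genes with the E-box 26.1% rose and 19.1% fell. Promoters were counted and not genes. Those of the output list with the E-box belong to Bhlhe41 and to Tef, which was counted more than once, and both genes fell.

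**Figure D5:**
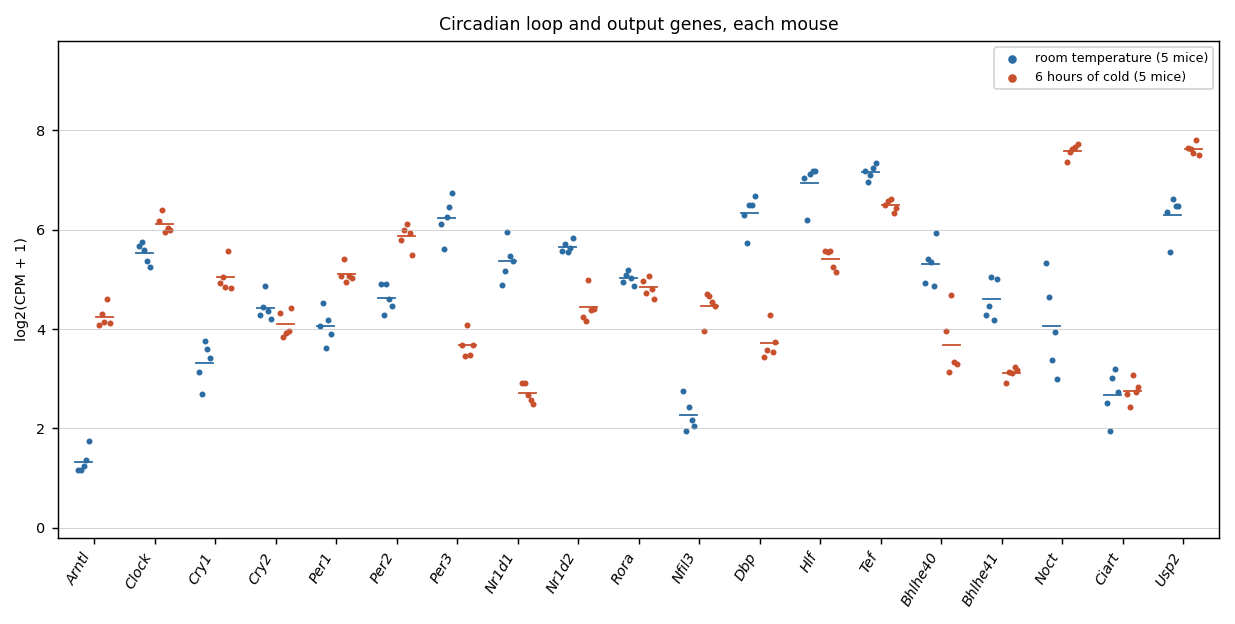
Level of circadian loop and output genes in each mouse, as log2(CPM + 1) on the vertical axis, with 5 control mice in blue, 5 mice after 6 hours of cold in red and short lines at the group means. Arntl, Cry1, Nfil3 and Noct lie higher in every cold-exposed mouse than in any control, and Nr1d1, Per3, Dbp and Hlf lie lower in every one.

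Among genes that respond to glucocorticoids, more rose than fell. Of 26 tested, 12 rose and 3 fell. The classical members Fkbp5 and Tsc22d3 rose by 0.81 ± 0.24 and 0.57 ± 0.11, and Sgk1 and Cables1 by 1.88 ± 0.26 and 2.10 ± 0.19 on the log2 scale. Angptl4, described above with lipid uptake, was among the 3 that fell. Many members, among them Cdkn1a, Dusp1, Cebpb, Per1, Fkbp5, Angptl4 and Klf9, also belong to other lists above, so these counts are not separate from theirs. In insulin signalling, 9 of 39 rose and 10 fell (11 and 9 without control replicate 3). Irs2, the receptor substrate, was at 16.7 to 65.5 CPM in controls and 109 to 172 CPM in the cold, a log2 fold change of 2.15 ± 0.28. Pik3r1, the regulatory subunit of PI3-kinase, fell by 1.59 ± 0.16 on the log2 scale.

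Receptors that sense metabolites were divided, with 7 higher and 7 lower of 22. Hcar1 and Adora1, described above, were among those that fell, and Ffar4, also described above, was among those that rose. Ptger3, a prostaglandin E receptor, fell by 1.30 ± 0.29 on the log2 scale. Npr3, the clearance receptor for natriuretic peptides, was at 19.0 to 25.0 CPM in controls and 92.2 to 205 CPM in the cold, a log2 fold change of 2.81 ± 0.20. Adora2a, the adenosine receptor that raises cAMP, rose by 1.67 ± 0.27. Of 35 secreted factors, 6 rose and 7 fell (9 and 7 without control replicate 1). Fgf9, a growth factor, was at 0.817, 1.63, 0.23, 1.39 and 1.17 CPM in controls and 9.30, 22.8, 19.5, 23.7 and 19.3 CPM in the cold, a log2 fold change of 4.11 ± 0.32. Lep, leptin, was at 6.54, 3.47, 22.1, 11.3 and 20.2 CPM and then 3.01, 1.70, 6.26, 1.73 and 2.31 CPM, values that overlapped between groups, with a log2 fold change of -2.07 ± 0.45 (edgeR adjusted p = 0.00137). Edn1, endothelin, rose by 1.96 ± 0.38 and Adipoq, adiponectin, fell by 0.40 ± 0.10 on the log2 scale. Of white-like and thermoneutral adipocyte genes, 7 of 17 fell and 3 rose, and Nnmt, the nicotinamide methyltransferase, was among those that rose, by 2.90 ± 0.20.

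Endothelial markers rose more often than they fell, and vessel signals were divided. Of 25 endothelial markers tested, 11 rose and 3 fell, and their summed level was 1095 to 1211 CPM in controls and 1621 to 1831 CPM in the cold. Sox18, Eng and Pecam1, all made by endothelium, rose by 1.90 ± 0.32, 1.52 ± 0.14 and 1.08 ± 0.13, and Cdh5, the cadherin that defines endothelium, had a log2 fold change of 0.03 ± 0.11, or -0.16 on library size alone, and did not pass the test under either. Aplnr, the apelin receptor, was at 4.90 to 10.1 CPM in controls and 0.463 to 1.48 CPM in the cold, a log2 fold change of -3.11 ± 0.36. Of 34 angiogenic ligands and receptors, 9 rose and 12 fell (10 and 9 without control replicate 1). While Angpt1 fell, Angpt2, its antagonist at the Tie2 receptor, rose by 1.74 ± 0.50, Pdgfb by 1.58 ± 0.17 and Fgf1 by 1.53 ± 0.21 on the log2 scale. In the vessel basement membrane, Col4a1 and Col4a2 rose by 1.38 ± 0.12 and 1.24 ± 0.13, and Ccn2, a matrix-associated growth regulator, by 2.34 ± 0.32. Their lists did not lean that way. Over the 21 collagens tested, 4 rose and 4 fell (2 higher and 7 lower on library size alone). Over 53 matrix glycoproteins and remodelling enzymes, 10 rose and 8 fell. That balance turned to 7 higher and 13 lower on library size alone. It was 9 higher and 10 lower on the nuclear library size and with upper quartile factors.

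Stromal, nerve and muscle markers had more lower than higher calls, in counts that moved when 1 mouse was left out. Beside the 21.0% of all genes, the share of lower calls was about the same for stromal markers and smaller for muscle markers. Only the nerve list, with 8 tested genes, had a larger share. In each list the share of higher calls was below the 21.5% of all genes. Stromal progenitor markers had 2 higher and 4 lower of 19 (2 and 1 without cold replicate 1), and Pdgfra and Dcn had log2 fold changes of -0.20 ± 0.18 and -0.21 ± 0.10 without passing the test, although Dcn was called lower on library size alone, at -0.39. Of the Schwann cell and nerve list, 8 of 20 genes could be tested, 1 rose and 3 fell, or 37.5% lower beside the 21.0% of all genes (2 lower without control replicate 3 or 4 or cold replicate 1, 4 or 5). Erbb3, the neuregulin receptor of Schwann cells, fell by 1.53 ± 0.48 on the log2 scale. Of 25 muscle genes, 0 rose and 2 fell, with a median log2 fold change of -0.94, and between 0 and 9 fell when 1 mouse was left out (0 without control replicate 1 or 3 or cold replicate 4 or 5, 1 without cold replicate 1, 4 without control replicate 5, 6 without cold replicate 2 and 9 without control replicate 2). Erythroid genes summed to 1936 to 2472 CPM in controls and 2318 to 4123 CPM in the cold.

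Chromatin and signalling lists had more lower than higher calls. Of chromatin modifiers 12.4% rose and 27.8% fell, beside the 21.5% and 21.0% of all genes. Of the Wnt, TGF-β and Notch list 7.4% rose and 25.9% fell. Of 97 chromatin modifiers, 12 rose and 27 fell, with Smarcd1 at 1.60 ± 0.17 and Setd4, Smarca2 and Kat2b at -1.16 ± 0.29, -1.13 ± 0.12 and -1.05 ± 0.14 on the log2 scale. Of 54 genes of Wnt, TGF-β and Notch signalling, 4 rose and 14 fell (2 rose without control replicate 5). Smad3 and Smad7, at 1.77 ± 0.16 and 1.37 ± 0.23, were among the 4 that rose, against the balance of the list. Of 209 Zfp genes, 27 rose and 36 fell, or 12.9% and 17.2%, both below the shares of all genes. Cell cycle genes were mostly too low to test, with 20 of 44 tested, 4 higher and 7 lower. Ccnd1, cyclin D1, rose by 1.83 ± 0.19, Cdk6 fell by 1.69 ± 0.14, and Top2a, a marker of dividing cells, had a log2 fold change of -0.56 ± 0.35 and did not pass the test. A scan of 116 families defined by symbol stem, each with at least 10 tested members, found none with 70% or more of its members called in 1 direction.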

How the data were processed

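RNA from whole iBAT of single mice was made into 3′ end libraries (QuantSeq FWD) and sequenced by the authors. They deposited whole-number read counts per gene, not normalized, made with STAR 2.6.1d and HTSeq 0.11.2 per the submitters' processing notes, for GRCm38 with Ensembl release 98. Depth was 3852831 to 5570725 counts per mouse. With one library per mouse, the p-values measure the spread between mice.

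Of 55421 genes, the 10593 that passed filterByExpr for the 10 libraries were fitted with edgeR 4.0.16 (R 4.3.3), with TMM scaling, glmQLFit and glmQLFTest, with Benjamini-Hochberg adjustment of p over all of them. The SE is the log2 fold change over the square root of F. The steps were tested on simulated counts with known changes. Levels are TMM-scaled CPM, with a prior count of 2 only in the principal components. DESeq2 1.42.0, 4 other scalings, 2 other filters, all 7 groups in 1 fit, a replicate block, leaving out each mouse and a test against a fold of 1.5 were the alternatives. The same replicate numbers stand in both groups, but same-numbered mice did not deviate together (r from -0.15 to 0.14), so no pairing was used.

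The members, the gene lists and the division into classes were chosen with earlier results of these data known. Several lists share members, so their counts are not separate results. Genes were named by rule: over all genes, the 15 that rose and the 15 that fell most (at least 50 counts on average and no overlap between groups), and in each list the first 2 written down and up to 5 with the largest change past the test (at least 20 counts on average). Genes outside the rule, chosen after their values were seen, are Angpt2, Aplnr, Arrb1, Atf3, Chordc1, Creb5, Cth, Dgat2, Dnaja4, Dnajb6, Dusp19, Dusp22, Dusp28, Dusp5, Dusp8, Edn1, Egr1, Elovl6, Erbb3, Fkbp4, Gbp9, Gys2, Hlf, Hspa12a, Hspb1, Hspb6, Il15, Lipg, Pde1c, Pde5a, Pdia5, Pm20d1, Prkar1a, Psmb10, Psmb5, Psme1, Psme2, Ptger3, Stub1, Tomm20, Upp1, Vdr, Zfp36l2, mt-Co1, mt-Cytb, mt-Nd1, mt-Nd2, mt-Nd3, mt-Nd4, mt-Nd5, mt-Nd6, mt-Rnr1, mt-Rnr2, Gm42418, Btg2, Plk2, Areg, Hspa1a, Hspa1b and Hspb3. Promoter sequences are from RefSeq (GRCm38.p6) and tRNA sequences from GENCODE M21 (GRCm38). Reads were counted per gene, and no p was computed for a list.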

Additional observations from a re-analysis of the deposited data

Results flagged for a closer look

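Each gene named in the text was looked at in both groups of 5 mice for a mouse far from the other 4. A mouse was picked out where its gap to the nearest of the others, as a share of the group's whole range, was above 0.71. This was so in 37 of 506 groups, and chance alone picks out about 1 in 20. The number in parentheses is that share, and no cause was tested for any of these values.

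Control replicate 1 was the highest of its group for Hspa5 (0.728) and Trmt10c (0.727) and the lowest of its group for Cct2 (0.741). Control replicate 2 was the highest of its group for Flcn (0.775), Ftl1 (0.719), Nr4a1 (0.808) and Nr4a3 (0.755) and the lowest of its group for Ccl9 (0.766), Hlf (0.812) and Srebf1 (0.796). Control replicate 3 was the highest of its group for mt-Tl2 (0.738). Control replicate 4 was the highest of its group for H2-Aa (0.731) and Relb (0.829) and the lowest of its group for Esr1 (0.785). Control replicate 5 was the highest of its group for Gbp3 (0.844), H2-D1 (0.788), H2-K1 (0.730), Iigp1 (0.836), Psmb8 (0.832) and Tap1 (0.817) and the lowest of its group for Smad7 (0.846). Cold replicate 1 was the highest of its group for Dusp19 (0.886) and the lowest of its group for Hspa4l (0.721). Cold replicate 2 was the highest of its group for Per1 (0.750). Cold replicate 3 was the highest of its group for Dbp (0.715), Esr1 (0.744) and Lep (0.713) and the lowest of its group for Psmc4 (0.854). Cold replicate 4 was the highest of its group for Atp6v0b (0.760), Cry1 (0.758) and Hcar1 (0.790). Cold replicate 5 was the highest of its group for Fkbp4 (0.727), Hspa5 (0.749), Ntrk3 (0.795) and Ucp1 (0.866) and the lowest of its group for Lipe (0.775) and Slc16a7 (0.721). Nr4a1 was at 38.7 CPM in control replicate 2, beside 12.4 CPM in the next mouse. Iigp1 was at 99.0 CPM in control replicate 5, beside 44.3 CPM in the next mouse. Ucp1 was at 9451 CPM in cold replicate 5, beside 7211 CPM in the next mouse.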

How the results depend on the processing

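The counts of 2280 genes higher and 2225 lower moved by over 1.5 times under 2 alternatives. On library size alone they were 1342 and 3399, where every fold change is lower by construction as the median of all genes moves by -0.19, and in the test against a fold of 1.5, which is stricter by construction, 543 and 689. Leaving out 1 mouse at a time gave 2018 to 2225 higher and 1953 to 2142 lower. The replicate block gave 2252 higher and 2238 lower and took the call from none of the genes named, while mt-Nd4 gained one. The share of higher genes among all calls was 50.6% on TMM, 28.3% on library size alone, 37.9% on the nuclear library size and 38.2% with upper quartile factors. DESeq2 called 2303 and 2140.

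Of 253 genes with values in the text, 242 kept direction and side of the threshold on library size alone, 246 on the nuclear library size, 253 with DESeq2's size factors in the edgeR fit, 251 by DESeq2, all but 4 with all 7 groups in 1 fit and 212 in the test against a fold of 1.5. With all 7 groups Adipoq, Egr1, H2-D1 and mt-Rnr2 lost their calls. The sign turned for 7 genes that did not pass the test in the first place. On library size alone Cdh5 was -0.16, Dnajb6 -0.18, Pparg -0.0043, mt-Cytb -0.17, mt-Nd1 -0.096 and mt-Nd2 -0.027, on the nuclear library size Cdh5 was -0.073, Dnajb6 -0.097, mt-Cytb -0.079 and mt-Nd1 -0.0080, and with upper quartile factors -0.070, -0.093, -0.074 and -0.0031. Leaving out 1 mouse at a time, Cdh5 ranged from -0.020 to 0.094 and turned negative without control replicate 2 (-0.012) or cold replicate 2, and mt-Cytb ranged from -0.019 to 0.078 and turned negative without cold replicate 3. Dnajb6 ranged from -0.070 to 0.090 and Stub1 from -0.069 to 0.069. The cause was not tested for these genes. Genes with under about 1 CPM in a group rest on few counts, and their fold changes are the least certain.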
